A study of Mus musculus with 64 samples.

Results

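Megakaryocyte-erythroid progenitors (MEP) were compared between Smarcd2 knockout (KO, Smarcd2 -/-) and heterozygous (HET, Smarcd2 +/-) fetal mouse livers. The members are the MEP libraries whose labels give these genotypes: 4 KO and 6 HET of the 14 MEP libraries, in a series of 64 libraries. A seventh HET library, number 8, was left out because its balance of long against short transcripts stood apart, and results are also given without KO library 15, whose balance stood apart further. Values of 3 wild-type (WT) libraries follow as background. All MEP libraries came from C57BL/6 fetuses aged 13/14 days post coitum, of undetermined sex, with no other labelled allele or treatment; how the Smarcd2 allele was made is not given in the sources used here. Cells were sorted from liver as CD45+, lineage-negative, Sca-1-, CD34 low and CD16/32 low. The gate labels also give CD177+, whereas the antibodies described for staining include CD117 (c-Kit) and no CD177. KO library 6 and HET libraries 1, 3, 4 and 7 carry the title series M32, KO library 11 and HET libraries 9 and 10 carry M33, and KO libraries 13 and 15 carry M34, which holds no HET library. The labels do not say what these series are, nor whether libraries came from separate fetuses, and the p-values therefore rest on library-to-library spread, which may be technical.

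SMARCD2 is one of a trio of interchangeable subunits, with SMARCD1 and SMARCD3, of the BAF (SWI/SNF) complex, which moves nucleosomes with the energy of ATP and thereby opens or closes regulatory DNA to transcription factors. It is best known for its part in neutrophil granulocyte maturation, where it acts with the factor CEBPE. MEP cells stand at the fork between red cells, driven by GATA1 and KLF1, and megakaryocytes, the parents of platelets, and in the fetus they are made mainly in the liver.

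The 10 libraries held 1488328 to 5646315 reads in genes. Transcript length balance was summarised on the log2 scale, with each gene centred, by subtracting the median of genes under 1500 bases from the median of genes over 5000 bases. This index was 0.60, 0.20, 0.09 and -1.99 in KO libraries 6, 11, 13 and 15, against -0.27 to 0.77 in HET libraries, with a HET median of 0.28. The HET library left out had an index of -1.62. KO 15 was thus the only KO library outside the range of the 6 HET libraries. Short and abundant housekeeping transcripts were high in the same library: the proteasome genes summed to 10361, 11293, 11643 and 39442 CPM, read counts scaled to the TMM-adjusted library size, in KO libraries, against 8571 to 12287 CPM in HET libraries. Of read depth, genes detected, spike-in share, mitochondrial share and length index, the mitochondrial share was lowest in unadjusted p, at 4.64 to 5.64% of reads in KO libraries (median 4.77%) and 5.32 to 7.36% in HET libraries (median 5.602%; two-sided exact permutation test p = 0.0476, 0.238 after Benjamini-Hochberg adjustment over 5 measures; smallest p possible 0.00952).

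**Figure D1:**
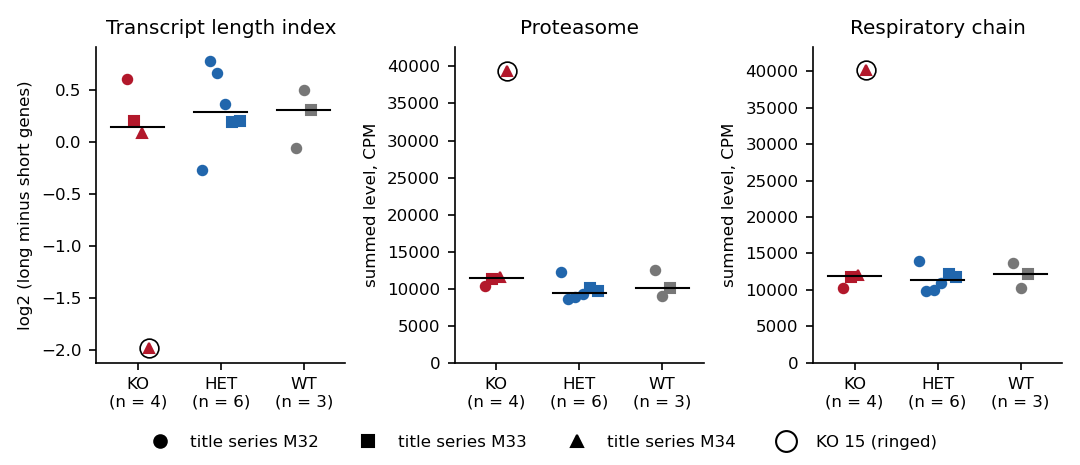
Each point is 1 MEP library, set in columns KO, HET and WT, with the group median as a line and the title series as the marker; the left axis is the log2 transcript length index, and the other axes are the summed level of proteasome and of nuclear respiratory chain genes in CPM. KO 15, ringed, lies at -1.99 on the index, while the other 3 KO libraries lie between 0.09 and 0.60, inside the HET range.

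Smarcd2 itself was nearly absent from KO libraries, which checks the labels. Its level was 1.51, 1.85, 1.17 and 0.346 CPM in KO libraries 6, 11, 13 and 15, against 48.8 to 79.4 CPM in HET libraries (median 69.5) and 84.2 to 134 CPM in WT libraries. The groups did not overlap. In a quasi-likelihood model over all genes (edgeR, Benjamini-Hochberg adjustment), the log2 fold change of KO over HET was -5.62 ± 0.35 (SE, n = 4 and 6, adjusted p = 2.71e-06), and -5.35 ± 0.29 without KO 15 (adjusted p = 5.38e-08). KO libraries still held 20 reads assigned to the gene in all, against 1308 reads in HET libraries. The paralog Smarcd1 had 13.6, 16.5, 13.2 and 27.7 CPM in KO libraries and 9.39 to 23.1 CPM in HET libraries (median 16.3), a log2 fold change of 0.15 ± 0.31 (edgeR adjusted p = 0.816, and 0.959 without KO 15). Psmc5, a proteasome ATPase gene that ends next to Smarcd2 (chr11:106256154-106263120, plus strand, GRCm38; Smarcd2 at chr11:106263179-106272972, minus strand), had 158, 134, 136 and 424 CPM in KO libraries and 143 to 181 CPM in HET libraries (edgeR adjusted p = 0.551, and 0.575 without KO 15). Of 25 other BAF subunit genes tested, 0 passed in either fit, with a median log2 fold change of -0.07, or -0.01 without KO 15.

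With all 4 KO libraries, 2 of 11474 genes passed an adjusted p of 0.05 (0.0174% of genes tested): Smarcd2 fell and Ifitm1, an interferon-induced transmembrane protein gene, rose. In the same fit 2283 genes had an unadjusted p under 0.05. Without KO 15, 25 of 11393 genes rose (0.219%) and 16 fell (0.14%). DESeq2 called 72 genes higher and 163 lower with all libraries, and limma voom with library quality weights 137 and 133. The 41 calls rest on few libraries: with the title series as a block 6 genes rose and 9 fell, with HET 8 kept 2 rose and 1 fell, and with KO 6, 11 or 13 also left out, 2 to 4 genes rose and 1 fell. Leaving out HET 7 instead left 11 rises and 6 falls, HET 3 left 12 rises and HET 4 left 15, and without WT 5 there were 39 rises and 27 falls. Smarcd2, Ifitm1 and Btn1a1 passed in each of the 12 fits that left out 1 further library, with HET 8 kept and with the series block.

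**Figure D2:**
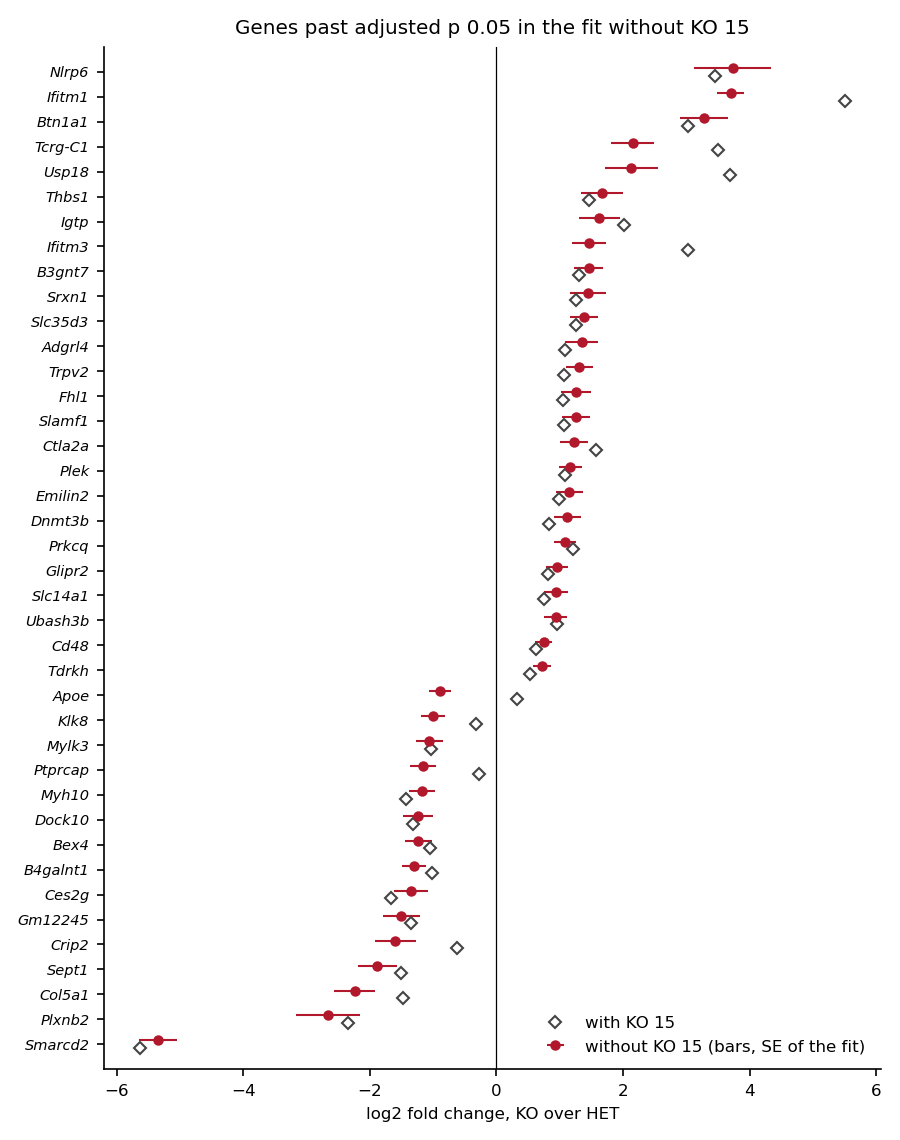
Rows are 40 of the 41 genes past an adjusted p of 0.05 without KO 15, and the horizontal axis is the log2 fold change of KO over HET; filled circles with SE bars are the fit without KO 15 and open diamonds the fit with it. Ifitm1, Tcrg-C1, Usp18 and Ifitm3 lie further right with KO 15, Crip2, Ptprcap and Klk8 lie nearer 0, and Apoe changes sign.

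Interferon-induced genes were among the rises. They are switched on when interferon receptors activate a complex of transcription factors, IRF9 among them, that binds the interferon-stimulated response element in their promoters. Ifitm1 (chr7:140967221-140969825, plus strand, GRCm38) is a member of the IFITM family, membrane proteins that hinder virus entry. Its level was 118, 171, 242 and 1923 CPM in KO libraries 6, 11, 13 and 15, against 10.2 to 16.3 CPM in HET libraries (median 13.9) and 5.22 to 8.88 CPM in WT libraries. Each KO library exceeded the highest HET library, KO 15 by far the most. The log2 fold change was 5.51 ± 0.69 (edgeR adjusted p = 0.00855, past the threshold in all leave-one-out fits except those without HET 3 or HET 4, where it was 0.0544 and 0.053, and lost with the title series as a block, at 0.0555, or with only KO and HET libraries, at 0.0577), and 3.70 ± 0.21 without KO 15 (adjusted p = 5.38e-08). Within title series, the difference on the log2(CPM + 1) scale was 3.18 in M32 and 3.40 in M33.

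Other genes near Ifitm1 on chromosome 7 were looked at after these values were seen. Of 17 genes annotated within 100 kb of it, 8 were listed and tested. Ifitm3 (chr7:141009586-141010770, minus strand), a close relative, had 42.2, 52.2, 48.0 and 415 CPM in KO libraries and 10.9 to 24.203 CPM in HET libraries (median 15.8). Nlrp6 (chr7:140920902-140929192, plus strand), a sensor gene of the NLR family, had 7.92, 5.05, 5.86 and 1.38 CPM in KO libraries and 0 to 0.626 CPM in HET libraries (median 0.454), from 75 reads in KO and 9 in HET libraries. WT libraries had 0 to 2.70 CPM of Nlrp6, so the highest WT library lay above KO 15. For both Ifitm3 and Nlrp6 all 4 KO libraries lay above all 6 HET libraries. Without KO 15 both rose, Ifitm3 by 1.46 ± 0.27 (edgeR adjusted p = 0.0272) and Nlrp6 by 3.73 ± 0.61 (adjusted p = 0.0144) on the log2 scale; with it the adjusted p was 0.0831 for each. Ifitm2, which lies between Nlrp6 and Ifitm1, had 80.7, 101, 126 and 1166 CPM in KO libraries and 42.1 to 107 CPM in HET libraries, and did not pass (edgeR adjusted p = 0.195, and 0.811 without KO 15). The other 4 genes, Sirt3, Psmd13, Gm15542 and Pgghg, did not pass either, with log2 fold changes of 0.06 to 0.61 without KO 15.

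The promoters of 5 interferon-induced genes are shown: Ifitm1 and Ifitm3 for the rises above, and Igtp, Oas1a and Bst2 as the genes with all KO above all HET libraries whose promoter held the motif described here. They are upstream sequences from RefSeq (GRCm38.p6), in the direction of transcription, ending at the RefSeq start or, for Ifitm1 and Ifitm3, before the nearest exon in the GENCODE annotation. The Ifitm1 window lies before the first exon of its shorter transcript, inside an intron of the longer one. Capitals mark a pair of GAAA motifs in the same orientation with NN, any 2 bases, between them, the core of the interferon-stimulated response element, searched on both strands with overlaps allowed.
Ifitm1: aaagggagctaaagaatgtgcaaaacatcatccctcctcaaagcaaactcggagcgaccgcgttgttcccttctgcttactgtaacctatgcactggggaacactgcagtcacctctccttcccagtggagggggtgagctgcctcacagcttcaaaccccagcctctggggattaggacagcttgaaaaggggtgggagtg
Ifitm3: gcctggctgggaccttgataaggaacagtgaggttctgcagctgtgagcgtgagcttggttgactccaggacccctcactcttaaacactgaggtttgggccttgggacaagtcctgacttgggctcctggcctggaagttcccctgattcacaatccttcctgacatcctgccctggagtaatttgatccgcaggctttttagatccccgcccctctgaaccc
Igtp: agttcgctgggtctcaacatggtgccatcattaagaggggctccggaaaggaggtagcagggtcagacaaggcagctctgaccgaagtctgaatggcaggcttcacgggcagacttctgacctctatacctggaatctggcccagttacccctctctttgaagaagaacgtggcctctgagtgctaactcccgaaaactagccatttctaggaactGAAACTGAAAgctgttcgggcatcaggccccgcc
Oas1a: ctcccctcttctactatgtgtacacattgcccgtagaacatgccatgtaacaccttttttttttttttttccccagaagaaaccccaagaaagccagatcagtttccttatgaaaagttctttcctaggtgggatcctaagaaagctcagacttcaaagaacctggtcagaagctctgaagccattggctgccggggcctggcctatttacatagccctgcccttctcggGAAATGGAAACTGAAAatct
Bst2: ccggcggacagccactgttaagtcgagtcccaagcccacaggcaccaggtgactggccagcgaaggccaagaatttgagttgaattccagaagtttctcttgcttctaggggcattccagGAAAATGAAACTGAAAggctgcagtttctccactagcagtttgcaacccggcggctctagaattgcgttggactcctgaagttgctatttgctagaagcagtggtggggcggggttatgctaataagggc

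These windows lie at chr7:140967826-140968027 (plus strand) for Ifitm1, chr7:141010771-141010994 (minus) for Ifitm3, chr11:58199306-58199555 (plus) for Igtp, chr5:120907526-120907775 (minus) for Oas1a and chr8:71537473-71537722 (minus) for Bst2. Igtp held 1 match, which begins 34 bases before its start, Oas1a and Bst2 held 2 overlapping matches each, and the windows of Ifitm1 and Ifitm3 held none. Among all 32851 RefSeq promoters, of 27025 genes, 2.98% held the motif within 250 bases before the start, each promoter counted singly. The shares that follow count genes, and a gene held the motif if any of its promoters did. They are therefore not on the same unit as the 2.98%. Among interferon response genes tested, 8 of the 23 with a promoter in the table held it. Among those with all KO above all HET libraries, 3 of the 6 with a promoter held it, and Ifitm3, Oasl2 and Ddx58 did not.

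Of 29 interferon response genes tested, 7 had all 4 KO libraries above all 6 HET libraries and 0 had them all below; over all genes tested, 173 lay all above (1.51%) and 237 all below (2.07%). Their median log2 fold change was 0.56, against 0.01 over all genes, and 0.51 without KO 15, against -0.01. Of the 29 genes, 22 were positive and 7 negative. Ifi209, an interferon-inducible gene, also went the other way, with a MEP log2 fold change of -2.40 in the joint fit with CMP described below. It was not among the genes that passed in MEP. Usp18, a protease that removes ISG15 and damps interferon signalling, had 6.03, 7.75, 12.0 and 77.9 CPM in KO libraries and 0.812 to 4.92 CPM in HET libraries (median 1.57). Igtp, an interferon-gamma-induced GTPase gene (Irgm3), had 12.8, 12.5, 15.2 and 32.2 CPM in KO libraries and 2.71 to 6.26 CPM in HET libraries (median 4.72). Both rose without KO 15, Usp18 by 2.13 ± 0.42 (edgeR adjusted p = 0.0398) and Igtp by 1.63 ± 0.33 (adjusted p = 0.044) on the log2 scale; with KO 15 the adjusted p was 0.0821 for each. Both passed in 4 of the 12 fits that left out 1 further library, and neither they nor Ifitm3 passed with the title series as a block. The 3 interferon list genes called without KO 15 were these and Ifitm3.

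Oasl2, Oas1a and Bst2, other sensors and effectors, were higher in each KO library without passing. Oasl2, of the oligoadenylate synthetase family, had 3.39, 5.72, 3.81 and 7.62 CPM in KO libraries and 0.679 to 1.79 CPM in HET libraries (log2 fold change 2.14 ± 0.37, edgeR adjusted p = 0.0706; too few reads to be tested without KO 15). Oas1a, an oligoadenylate synthetase, had 4.88 to 14.2 CPM in KO libraries and 0.812 to 4.47 CPM in HET libraries (adjusted p = 0.162, and 0.306 without KO 15). Bst2, which tethers virus particles to the cell, had 20.498 to 97.3 CPM in KO libraries and 12.2 to 20.356 CPM in HET libraries (adjusted p = 0.195, and 0.396 without KO 15). Irf9, which gives that complex its DNA binding, had 32.0, 29.3, 29.3 and 12.1 CPM in KO libraries and 10.1 to 19.7 CPM in HET libraries, so KO 15 lay inside the HET range and the other 3 above it (edgeR adjusted p = 0.231, and 0.12 without KO 15). The summed level of the list was 494, 463, 483 and 1174 CPM in KO libraries and 310.3 to 366 CPM in HET libraries.

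**Figure D3:**
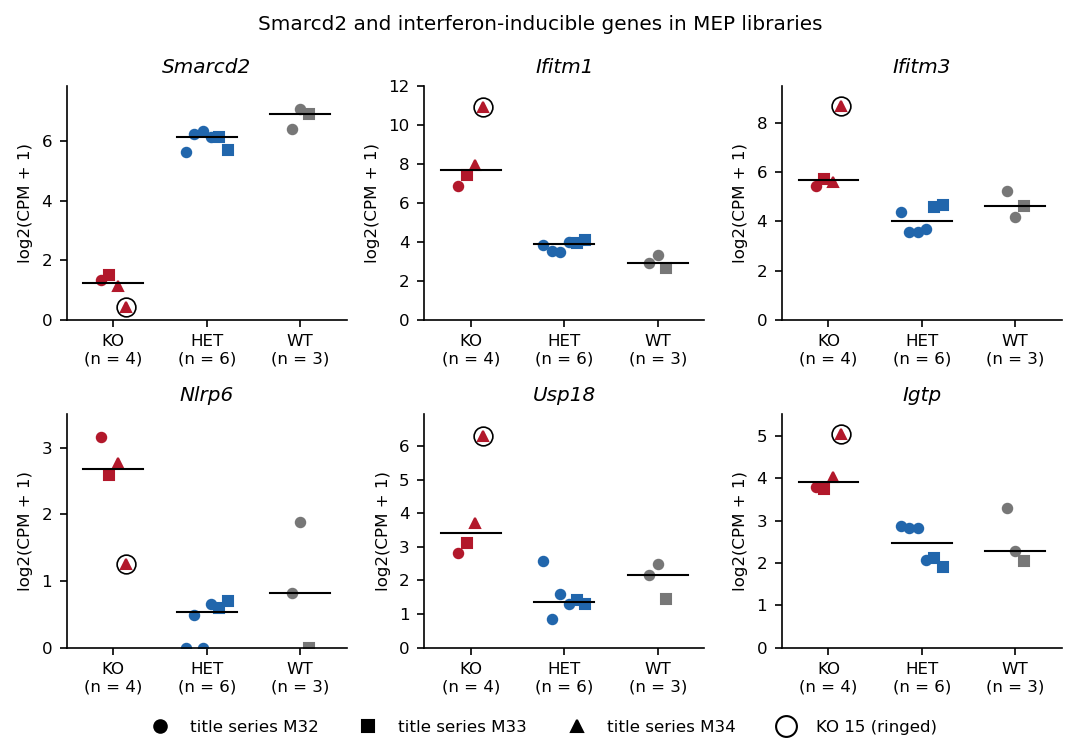
Each panel plots 1 gene on the log2(CPM + 1) scale, with libraries as points in columns KO, HET and WT, the group median as a line and the title series as the marker; KO 15 is ringed. Smarcd2 is low in all 4 KO libraries, and in the other 5 panels every KO library lies above every HET library, with KO 15 the highest for Ifitm1, Ifitm3, Usp18 and Igtp and the lowest KO library for Nlrp6.

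Megakaryocyte and platelet genes were higher in KO libraries as a list. Of 26 tested, 10 had all KO above all HET libraries and 0 all below, beside the 1.51% and 2.07% of all genes. Their median log2 fold change was 0.92, or 0.64 without KO 15, and 23 of 26 were positive. Without KO 15, Plek, Thbs1 and Slamf1 rose, and with it 0 passed. Their summed level was 1305, 1215, 1109 and 1798 CPM in KO libraries, against 689 to 894 CPM in HET libraries and 758 to 1031 CPM in WT libraries. Stem and multipotent progenitor genes were also higher in sum, without overlap: the list summed to 859, 802, 809.7 and 897 CPM in KO libraries, against 582 to 718 CPM in HET libraries. Ifitm3 is on this list and gave 415 CPM of the KO 15 sum, against 42.2 to 52.2 CPM in KO 6, 11 and 13. The place of KO 15 above the HET range therefore rests on Ifitm3. Of the 21 genes tested on the list, Slamf1 and Ifitm3 rose without KO 15, and the median log2 fold change was 0.14, or 0.11 without KO 15. The part of stem and progenitor genes in the megakaryocyte values was not tested. In bulk samples such as these, more cells of a type and more RNA per cell cannot be told apart.

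Plek encodes pleckstrin, a main protein kinase C substrate of platelets. Its level was 169, 121, 100.4 and 99.0 CPM in KO libraries and 45.2 to 71.1 CPM in HET libraries (median 57.2), and it rose by 1.17 ± 0.18 on the log2 scale without KO 15 (edgeR adjusted p = 0.0144; 0.0821 with it). Thbs1, thrombospondin of platelet alpha granules, had 58.8, 45.8, 37.5 and 20.427 CPM in KO libraries and 10.7 to 21.491 CPM in HET libraries (median 14.2), with KO 15 inside the HET range. Its rise without KO 15 was 1.67 ± 0.33 (edgeR adjusted p = 0.044), and it reached 32.8 CPM in a WT library. Slamf1 encodes CD150, a receptor of stem cells and of megakaryocyte-biased progenitors. It had 44.5, 45.8, 44.5 and 21.465 CPM in KO libraries and 13.0 to 25.1 CPM in HET libraries (median 17.8), again with KO 15 inside the range, and rose by 1.25 ± 0.22 without it (edgeR adjusted p = 0.0237). Neither Thbs1 nor Slamf1 passed with the title series as a block; Plek did.

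Further genes of the lineage lay above the HET range in each KO library but missed the threshold. Pf4, platelet factor 4, had 85.2, 123, 91.4 and 759 CPM in KO libraries and 33.9 to 62.8 CPM in HET libraries (median 45.6; edgeR adjusted p = 0.113, and 0.0758 without KO 15), and 38.3 to 99.2 CPM in WT libraries, so the highest WT library lay inside the KO range. Vwf, von Willebrand factor, had 27.9, 24.6, 18.7 and 35.0 CPM in KO libraries and 7.46 to 15.1 CPM in HET libraries (adjusted p = 0.0821, and 0.0535 without KO 15). The fibrinogen receptor chain Itgb3, the adhesion receptor chains Gp1bb and Gp5, the tetraspanin Cd9, Rab27b and F2rl2 were also among the 10 genes without overlap. Itgb3 had 7.61 to 18.1 CPM in KO libraries and 3.13 to 7.36 CPM in HET libraries, and 3.83 to 17.4 CPM in WT libraries, which overlapped KO. The transcription factor genes Fli1 and Mef2c overlapped between groups: Fli1 had 46.4, 39.7, 31.6 and 11.1 CPM in KO libraries and 19.236 to 62.4 CPM in HET libraries (adjusted p = 0.62, and 0.976 without KO 15), and Mef2c 129, 114, 101 and 65.4 CPM against 98.4 to 173 CPM in HET libraries (adjusted p = 0.555, and 0.938 without KO 15).

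**Figure D4:**
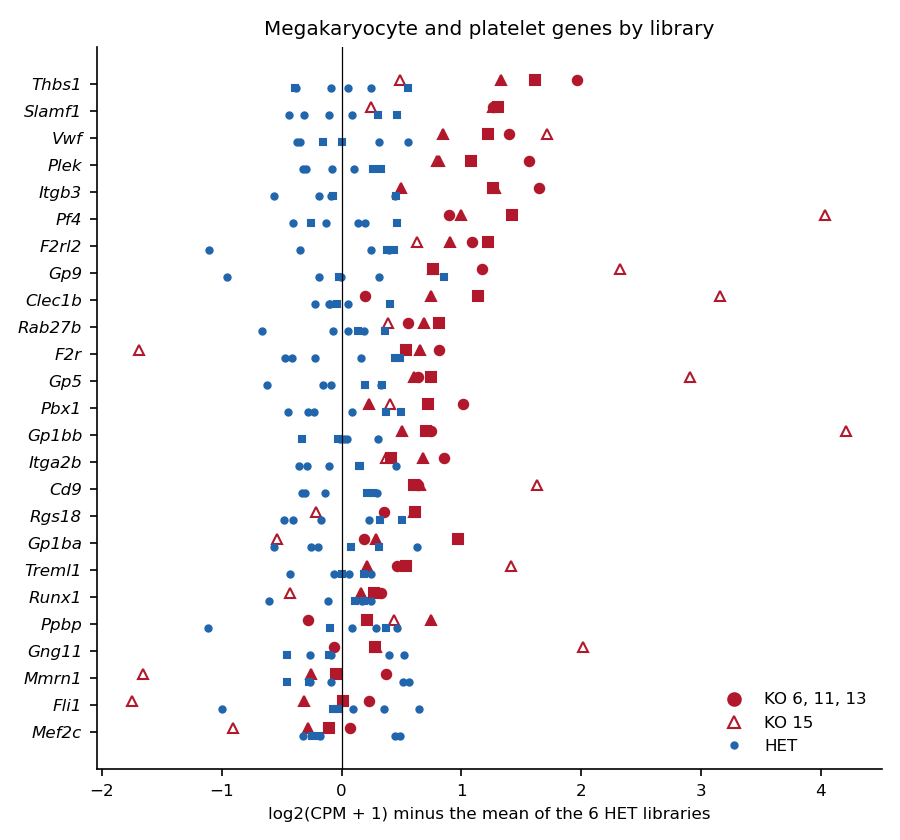
Rows are 25 of the 26 megakaryocyte and platelet genes tested, ordered by the mean of KO 6, 11 and 13, and the horizontal axis is log2(CPM + 1) minus the mean of the 6 HET libraries; KO libraries are the upper and HET libraries the lower points of each row, with circles for M32, squares for M33 and triangles for M34. KO 6, 11 and 13 lie right of the HET points for most of the upper rows, and KO 15, open, spreads to both sides, far right for Gp1bb, Pf4 and Clec1b and far left for F2r, Fli1 and Mmrn1.

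No gene on the red cell lists passed the threshold in either fit. Of 30 erythroid transcription factor and signalling genes, 0 passed and the median log2 fold change was -0.02, or 0.08 without KO 15. Gata1, the master factor of both lineages, had 185, 196, 202 and 453 CPM in KO libraries and 97.7 to 187 CPM in HET libraries (median 170.4; edgeR adjusted p = 0.215, and 0.733 without KO 15). Klf1, the erythroid factor, had 131, 179, 157 and 854 CPM in KO libraries and 88.2 to 168 CPM in HET libraries (adjusted p = 0.195, and 0.841 without KO 15). Epor, the erythropoietin receptor, had 75.0, 80.3, 58.6 and 12.1 CPM in KO libraries and 30.4 to 64.6 CPM in HET libraries (adjusted p = 0.865, and 0.476 without KO 15). Lmo2, Nfe2 and Lyl1, a bridging protein and a pair of partners in blood cell factor complexes, were the 3 of the 30 with all KO above all HET libraries. A further 1 of the 30 had all KO below all HET libraries. Over all genes tested, 1.51% lay all above and 2.07% all below. Lmo2 had 441, 473, 444 and 622 CPM in KO libraries and 236 to 373 CPM in HET libraries (edgeR adjusted p = 0.195, and 0.302 without KO 15). Of 25 heme and iron genes and 29 red cell membrane and surface genes tested, 0 passed, with medians of 0.01 and -0.08 without KO 15.

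Globin levels of HET and WT libraries differed between title series, and KO lay far below HET in M32. The 7 globin genes tested summed to 641 CPM in KO 6 against 6674 to 12503 CPM in the M32 HET libraries, and to 1088 CPM in KO 11 against 1191 and 1299 CPM in the M33 HET libraries. KO 13 and KO 15 of M34 had 1786 and 2904 CPM. The adult beta-globin gene Hbb-bs had 198, 297, 576 and 652 CPM in KO libraries and 374 to 4321 CPM in HET libraries, a log2 fold change of -2.45 ± 0.78 (edgeR adjusted p = 0.195, and 0.425 without KO 15). Within series the difference on the log2(CPM + 1) scale was -4.01 in M32 and -0.35 in M33. The alpha-globin genes Hba-a1 and Hba-a2, near-identical copies whose reads can be split between them, behaved likewise, with M32 differences of -4.01 and -4.03 and M33 differences of -0.46 and -0.28. The embryonic genes Hbb-y, Hbb-bh1 and Hba-x overlapped between groups and gave adjusted p of 0.512 to 0.982.

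B cell genes were lower in KO libraries as a list. Fetal liver is also a site of early B cell development, and the sort removed cells with the B cell antigen B220. Of 19 B cell genes tested, 13 had all 4 KO libraries below all 6 HET libraries and 0 above, beside 2.07% of all genes below; all 19 had a negative log2 fold change, with a median of -2.74, or -2.76 without KO 15. None passed an adjusted p of 0.05 in either fit. The summed level was 255 CPM in KO 6 against 1211 to 2653 CPM in the M32 HET libraries, 180.0 CPM in KO 11 against 423 and 479 CPM in the M33 HET libraries, and 191 and 260.0 CPM in KO 13 and KO 15. The HET libraries thus differed between series by more than the KO libraries differed among themselves, and KO lay lower within both series. Globin sums were high in the same M32 HET libraries. Hepatocyte sums were high in HET 1, 3 and 4 of M32, at 5281, 2694 and 1828 CPM, but not in HET 7, at 306.5 CPM. They were 52.0 and 442 CPM in M33 HET libraries, and 794, 43.4, 546 and 159 CPM in KO 6, 11, 13 and 15. The part of globin and hepatocyte transcripts in the B cell values was not tested.

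Ighm, the immunoglobulin heavy chain constant region gene, had 59.6, 40.7, 44.5 and 28.7 CPM in KO libraries, against 93.3 to 629 CPM in HET libraries (median 349.6) and 161 to 699 CPM in WT libraries. The log2 fold change was -3.03 ± 0.60 (edgeR adjusted p = 0.0831, and 0.211 without KO 15), and the within-series difference was -2.93 in M32 and -1.31 in M33. Cd79a, a signalling chain of the B cell receptor, had 10.2, 10.9, 9.37 and 3.12 CPM in KO libraries and 22.7 to 145 CPM in HET libraries (adjusted p = 0.0821, and 0.188 without KO 15). Ebf1, the factor that commits cells to the B lineage, had 15.5, 10.8, 14.1 and 12.1 CPM in KO libraries and 24.8 to 199 CPM in HET libraries (adjusted p = 0.156, and 0.367 without KO 15). Rag1, of the recombinase that joins antigen receptor genes, had 16.6, 5.89, 6.44 and 2.42 CPM in KO libraries and 19.581 to 149 CPM in HET libraries (adjusted p = 0.152, and 0.358 without KO 15). In each of these 4 genes the highest KO library lay below the lowest HET library.

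**Figure D5:**
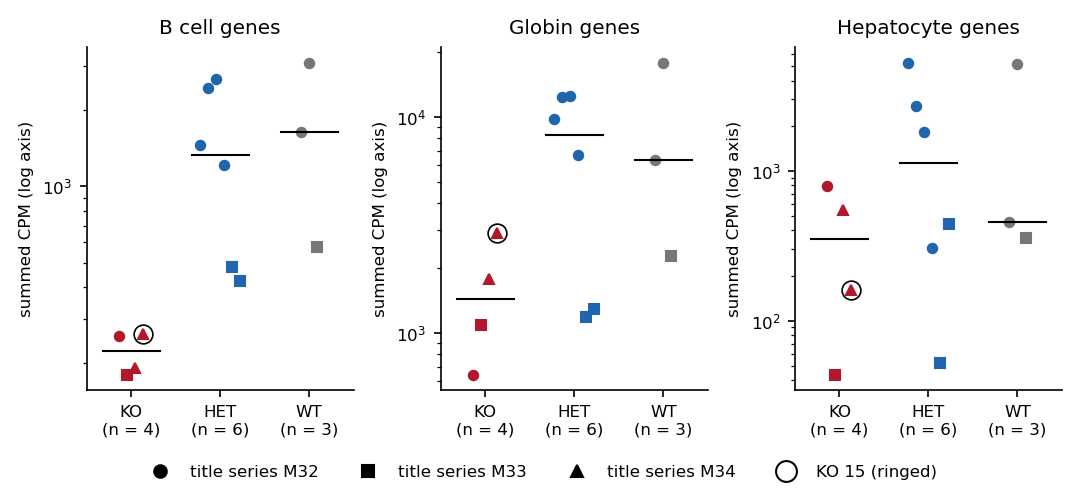
Each point is the summed level of B cell, globin or hepatocyte genes in 1 library, in CPM on a log axis, in columns KO, HET and WT, with the group median as a line and the title series as the marker. The M33 libraries, squares, lie low in HET and WT as well as in KO, and for B cell genes the 4 KO libraries, at 180.0 to 260.0 CPM, lie below all HET libraries. For hepatocyte genes HET 7 of M32, at 306.5 CPM, lies below HET 9 of M33, at 442 CPM.

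Genes of secondary and tertiary granules, which neutrophils make late in maturation, were scarce in MEP libraries of either genotype, and those of primary granules less so. The primary granule list summed to 265, 243, 328 and 1013 CPM in KO libraries and 318 to 794 CPM in HET libraries, and 0 of its 14 genes tested passed. Of 16 secondary and tertiary granule genes, 10 were listed and 4 could be tested; their sum was 3.77, 2.53, 5.56 and 12.1 CPM in KO libraries and 4.36 to 86.8 CPM in HET libraries. The groups overlapped and none passed. S100a8, a calcium-binding protein of neutrophils, had 0 CPM in KO 6, 11 and 13 and 1.0387 CPM in KO 15, against 0.167 to 27.3 CPM in HET libraries (edgeR adjusted p = 0.195, and 0.431 without KO 15). Elane, neutrophil elastase, had 0, 0.337, 1.17 and 6.58 CPM in KO libraries and 1.17 to 61.7 CPM in HET libraries (adjusted p = 0.195, and 0.311 without KO 15). Of 14 monocyte and macrophage genes tested, 2 had all KO below all HET libraries (2.07% of all genes did). Their log2 fold changes were negative for 12 and positive for 2, with a median of -1.37, or -1.31 without KO 15. The list summed to 228, 229, 281 and 1081 CPM in KO libraries and 372 to 537 CPM in HET libraries, so KO 15 lay above the HET range and the other KO libraries below it. Apoe, the apolipoprotein of macrophages and hepatocytes, fell without KO 15, by 0.89 on the log2 scale (edgeR adjusted p = 0.0388), while with KO 15 its fold change was 0.33 (adjusted p = 0.731). Of 10 basophil and mast cell genes tested, 5 had a positive and 5 a negative log2 fold change, with a median of 0.01, and Ifitm1, which is on this list, was the 1 that passed. The list summed to 564, 665, 681 and 2418 CPM in KO libraries and 497 to 628 CPM in HET libraries. Ifitm1 alone gave 118, 171, 242 and 1923 CPM of the KO sums and 10.2 to 16.3 CPM of the HET sums. The KO sums above the HET range therefore rest on Ifitm1. All KO libraries lay below all HET libraries for 2 of the 10 genes, beside 2.07% of all genes. Il1rl1, the IL-33 receptor, had 4.15, 5.56, 3.81 and 6.23 CPM in KO libraries and 8.50 to 16.3 CPM in HET libraries. Hdc, which makes histamine, had 1.13, 0.842, 2.64 and 2.77 CPM in KO libraries and 3.51 to 13.6 CPM in HET libraries. Neither gene passed (adjusted p = 0.15 and 0.183, and 0.0908 and 0.152 without KO 15).

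The remaining rises without KO 15 were spread over several roles. Btn1a1, a butyrophilin of the immunoglobulin superfamily, had 24.128, 14.985, 19.034 and 5.54 CPM in KO libraries and 0 to 2.51 CPM in HET libraries (median 2.06), a log2 fold change of 3.28 ± 0.38 without KO 15 (edgeR adjusted p = 0.00106; 0.0666 with it). Tcrg-C1, a constant region gene of the gamma T cell receptor, had 9.80, 15.8, 15.5 and 99.4 CPM in KO libraries and 2.03 to 4.02 CPM in HET libraries (adjusted p = 0.0144 without KO 15, and 0.0793 with it). Reads of its near-identical copies can be split, so its level is uncertain. Ctla2a, a cysteine protease inhibitor gene, had 38.1, 55.1, 51.5 and 100.4 CPM in KO libraries and 14.2 to 27.6 CPM in HET libraries, and rose by 1.22 ± 0.22 on the log2 scale (adjusted p = 0.026; 0.0802 with KO 15). Trpv2, a cation channel, had 42.6, 32.8, 30.5 and 12.5 CPM in KO libraries and 9.81 to 18.6 CPM in HET libraries, with KO 15 inside the HET range (adjusted p = 0.0144 without it, and 0.181 with it). B3gnt7, Srxn1, Slc35d3, Adgrl4, Fhl1, Emilin2, Dnmt3b, Prkcq, Glipr2, Slc14a1, Ubash3b, Cd48 and Tdrkh rose by 0.72 to 1.46 on the same scale.

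Besides Smarcd2 and Apoe, 14 genes fell without KO 15. Plxnb2, a semaphorin receptor, had 1.89, 1.01, 0.586 and 2.42 CPM in KO libraries and 3.68 to 11.5 CPM in HET libraries, a log2 fold change of -2.66 ± 0.51 (edgeR adjusted p = 0.038; 0.0832 with KO 15). Col5a1, a fibrillar collagen chain, had 2.26, 2.69, 2.64 and 10.040 CPM in KO libraries and 7.46 to 16.7 CPM in HET libraries, with KO 15 inside the HET range (adjusted p = 0.0114 without it, and 0.195 with it). Dock10, a guanine exchange factor of leukocytes, had 17.7, 20.036, 21.377 and 16.3 CPM in KO libraries and 33.5 to 73.1 CPM in HET libraries (adjusted p = 0.038; 0.0802 with KO 15). Myh10, nonmuscle myosin IIB, whose silencing accompanies megakaryocyte polyploidization, had 30.5, 22.393, 22.3 and 7.62 CPM in KO libraries and 37.6 to 65.9 CPM in HET libraries, and fell by 1.17 on the log2 scale (adjusted p = 0.0216; 0.111 with KO 15). Sept1, Crip2, Gm12245, Ces2g, B4galnt1, Bex4, Ptprcap, Mylk3 and Klk8 also fell, with log2 fold changes of -1.88 to -0.999.

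Proteasome and nuclear respiratory chain genes left the HET range in sum in KO 15 only. Of 36 proteasome genes, 35 had a positive log2 fold change, with a median of 0.76, but 0.18 without KO 15, and 0 passed in either fit. Of 37 nuclear genes of the respiratory chain, 34 were positive with a median of 0.82, but -0.03 without KO 15. Psmb2, a catalytic-core proteasome subunit, had 265, 361, 372 and 4348 CPM in KO libraries and 227 to 429 CPM in HET libraries, so KO 15 alone left the range. The lists for mitosis, DNA replication, p53 targets, unfolded protein and heat shock responses had medians between -0.13 and 0.09 with KO 15 and between -0.09 and 0.13 without it, and none of their genes passed. The heat shock list went the other way in sum, with KO 6, 11 and 13 above the HET range and KO 15 inside it. It summed to 18069, 16709, 16795 and 15641 CPM in KO libraries and 14496 to 16144 CPM in HET libraries, with 12 genes positive and 8 negative. All 8 cytosolic chaperonin genes were positive, with a median of 0.36, or 0.18 without KO 15, and 0 passed. Of 25 G1/S cell cycle genes tested, 0 passed, 9 had a positive and 16 a negative log2 fold change, with a median of -0.27. The median was -0.07 without KO 15. All KO libraries lay above all HET libraries for 1 gene and below for 2, beside 1.51% and 2.07% of all genes. The gene above was Ccnd2, cyclin D2, with 296, 316, 299.9 and 316 CPM in KO libraries and 113 to 202 CPM in HET libraries (log2 fold change 0.95 ± 0.22, edgeR adjusted p = 0.124, and 0.0618 without KO 15). Ccne2, cyclin E2, was among those below, with 67.1, 64.5, 75.0 and 46.0 CPM in KO libraries and 78.3 to 123 CPM in HET libraries (edgeR adjusted p = 0.195, and 0.286 without KO 15).

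The KO effect in MEP was set against that in common myeloid progenitors (CMP, 4 KO and 6 HET libraries) and granulocyte-monocyte progenitors (GMP, 3 KO and 6 HET libraries) of the same study. CMP HET library 1 is labelled 14.5 days post coitum. HET library 8 of CMP and of GMP was left out as well, to keep the HET numbers the same as in MEP. Where HET 8 was kept in these comparisons, it was kept in both populations. The difference of the effects was tested in 1 model per pair of populations. Against CMP, 10 of 11538 genes differed (0.0867%), 3 with a higher and 7 with a lower effect in MEP. Ifitm1 was higher in KO than HET libraries of both populations but more so in MEP: its CMP levels were 132 to 414 CPM in KO libraries and 55.8 to 84.8 CPM in HET libraries, so the effect on the log2 scale was greater in MEP by 3.83 ± 0.74 (edgeR adjusted p = 0.0268, and 0.000202 without number 15). Anxa2, annexin A2, had a lower level in CMP KO libraries, at 17.9 to 40.5 CPM, than in CMP HET libraries, at 57.8 to 83.0 CPM, whereas in MEP it had 54.3 to 93.8 CPM in KO and 37.3 to 87.7 CPM in HET libraries; the difference was 1.65 ± 0.31 (adjusted p = 0.0239, and 0.00132 without number 15). With HET 8 kept, 0 genes had a higher effect in MEP than in CMP, so both calls were lost.

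The 7 genes with a lower effect in MEP were Il7r, Dock10, Trbc2, Ighm, Tnfrsf13c, Blnk and Ifi209. Il7r, the interleukin 7 receptor chain that early lymphoid cells depend on, had 25.6, 11.4, 12.9 and 4.85 CPM in MEP KO libraries and 28.3 to 123 CPM in MEP HET libraries, but 17.9 to 21.117 CPM in CMP KO libraries and 3.34 to 6.95 CPM in CMP HET libraries. The effects differed by -4.37 ± 0.61 (edgeR adjusted p = 0.0019, and 0.0117 without number 15). Dock10 and the T cell receptor constant gene Trbc2 also passed with and without number 15, with differences of -1.69 and -2.69. For Ighm, Tnfrsf13c, which is the BAFF receptor, Blnk, a B cell adaptor, and Ifi209, an interferon-inducible gene of the IFI200 family, the differences of -3.17, -3.53, -3.74 and -3.31 passed with number 15 and not without it (adjusted p = 0.14 to 0.178), nor did they with the shared sample number as a block (adjusted p = 0.0531 to 0.104).

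Against GMP, 86 of 12259 genes differed (0.702%), 37 with a higher and 49 with a lower effect in MEP. Ighm and Il7r again had a lower effect in MEP, with log2 differences of -4.67 and -4.29 (edgeR adjusted p = 0.0105 and 0.0245). Gimap4, a lymphoid GTPase gene, differed by -7.02 and Id3, an inhibitor of E proteins, by -5.45. The higher ones included Ache, acetylcholinesterase, which in mouse marks megakaryocytes: it had 15.5, 11.6, 10.2 and 13.5 CPM in MEP KO libraries and 2.71 to 7.31 CPM in MEP HET libraries, and was at 0 in all 3 GMP KO libraries and at 0 to 2.22 CPM in GMP HET libraries (adjusted p of the difference 0.0169); with a group at 0 the size of the difference is not defined. Without number 15 the adjusted p was 0.111 for Il7r and 0.0641 for Ache, and 0.0493 for Ighm. All of these GMP differences were lost when the shared sample number entered as a block, which left 0 genes.

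HET and WT MEP libraries differed in no gene by edgeR at an adjusted p of 0.05; 86 genes had an unadjusted p under 0.05, and DESeq2 and limma voom also called 0. Smarcd2 itself had a HET over WT log2 fold change of -0.78 (adjusted p = 1), with 48.8 to 79.4 CPM in HET libraries and 84.2 to 134 CPM in the 3 WT libraries, which did not overlap.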

How the data were processed

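Smart-seq2 marks neither strand nor molecule, so reads of overlapping genes cannot be told apart and reads are not independent molecules. The authors deposited whole-number read counts per gene, which featureCounts produced with mm10 (GRCm38) according to the submitters' processing notes, and no source used here names the aligner or annotation. The MEP counts list 13050 genes and 27 spike-ins, left out of library sizes and all tests. Symbols and positions came from GENCODE M21 (120 genes unmatched).

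KO, HET and WT libraries entered 1 quasi-likelihood model (edgeR 4.0.16, R 4.3.3, TMM, robust) after filterByExpr (minimum count 10, minimum total 15), with Benjamini-Hochberg adjustment over all genes at 0.05. CPM are scaled by TMM. Each SE was obtained by dividing the absolute log2 fold change by the square root of F. Alternatives used DESeq2 1.42.0 and limma 3.58.1, other filters, scalings, covariates and left-out libraries. The model was tested on simulated data. Effects in MEP and CMP or GMP were compared over shared genes.

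The comparison and the 36 gene lists were chosen with earlier results of these data known. Genes named were Smarcd2, the 14 largest rises and falls past the threshold at a mean log2 CPM of at least 1, the 3 smallest p of each list, further members by role, and the 6 largest effect differences each way; the other genes of the 41 were named after their values were seen. Some single-gene results are not reported here.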

Additional observations from a re-analysis of the deposited data

Results flagged for a closer look

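Dixon's test picked out single libraries of a group, as chance does in about 1 in 20 groups. The mitochondrial share was 5.64% in KO 13 and 7.36% in HET 9, each the highest of its group. KO 15 stood apart from the other 3 KO libraries for Ifitm3 (415 CPM), B3gnt7 (17.0 CPM), Fhl1 (6.23 CPM), Col5a1 (10.04 CPM) and Sept1 (9.002 CPM). Single HET libraries stood apart for Btn1a1 (0 CPM in HET 1), Crip2 (4.75 CPM in HET 4) and Myh10 (37.6 CPM in HET 1).

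The KO effect in MEP differed from that in CMP, by the edgeR test of the difference, for Ifitm1 (3.83 on the log2 scale), Anxa2 (1.65), Dock10 (-1.69), Trbc2 (-2.69), Ighm (-3.17), Ifi209 (-3.31), Tnfrsf13c (-3.53), Blnk (-3.74) and Il7r (-4.37). With the replicate number as a block Ighm, Ifi209, Tnfrsf13c and Blnk no longer passed, and with HET 8 kept no gene had a higher effect in MEP.

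Against GMP the effect in MEP was higher for Zfp773 (6.94), Zfp449 (6.71), Gramd3 (6.43), Ache (6.29), Adat2 (5.62) and Ppm1k (5.57). Most of each difference came from a fall in GMP. In the same order, the GMP effects were -7.18, -6.39, -4.98, -5.07, -4.28 and -6.43. The MEP effects were -0.25, 0.33, 1.45, 1.22, 1.34 and -0.86. The effect in MEP was lower for Pou2af1 (-9.70), Ifi206 (-9.05), Trp53i11 (-8.42), Galnt12 (-7.15), Gimap4 (-7.02), Tmem255a (-7.00), Stab2 (-6.66), Ifi209 (-5.78), Id3 (-5.45), Ighm (-4.67), Il7r (-4.29), Zfp36l1 (-3.98), Trbc2 (-3.92), Ebf1 (-3.83), Il1rl1 (-3.28), Hdc (-2.41) and Egr1 (-2.22). The GMP effect of these genes was positive, from 0.50 for Hdc to 7.34 for Ifi206. Their MEP effect was negative except for Egr1, at 0.70. Zfp773, Zfp449, Ache and Ppm1k were at 0 in all 3 GMP KO libraries and Ifi206 in all 6 GMP HET libraries, so the sizes of these differences depend on the prior count of the fit. None of the GMP differences passed with the replicate number as a block, and GMP had 3 KO libraries. Without number 15, Pou2af1, Ifi206, Ifi209, Il7r, Trbc2, Ebf1, Hdc, Ache and Ppm1k no longer passed (edgeR adjusted p = 0.0561 to 0.299). Pou2af1 had 0.215, 0.785 and 23.9 CPM in GMP KO libraries and 0 to 0.259 CPM in GMP HET libraries, so its difference rests largely on 1 library.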

How the results depend on the processing

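Among the genes followed singly, no called value changed sign under the alternatives run; Apoe, called lower without KO 15, had a positive fold change with it. The counts of calls moved. With all KO libraries, 1 gene rose and 1 fell; DESeq2 gave 72 and 163, limma voom with quality weights 137 and 133, the transcript length index as a covariate 44 and 23. Rises numbered 0 with only KO and HET libraries, 0 with the title series as a block, 3 with only M32 and M33, and 2 without KO 15 but with HET 8 kept. Leaving out 1 library gave 0 to 25 rises and 1 to 16 falls. Without KO 15, 25 genes rose and 16 fell; DESeq2 gave 81 and 193, voom 132 and 121, HET 8 kept 2 and 1, the title series block 6 and 9, only M32 and M33 3 and 1, and the length index 71 and 65. Falls numbered 30 with only KO and HET libraries and 26 with a covariate for the log2 spike-in share. Leaving out 1 further library gave 2 to 39 rises and 1 to 27 falls. Genes whose groups did not overlap numbered 67 above and 133 below with HET 8 kept, and 382 and 399 without KO 15.

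For the difference from CMP, HET 8 kept gave 0 genes higher and 3 lower, leaving out number 15 gave 6 and 3, and voom 37 and 74. For GMP, HET 8 kept gave 13 and 5, leaving out number 15 gave 32 lower, and voom 104 lower. The causes were not tested.

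KO and HET libraries of MEP share no sample number, so no paired fit of that comparison was possible. Same-numbered MEP and CMP libraries deviated together with r of 0.05 to 0.54 over 13 pairs (8 best with their own number). MEP and GMP libraries had r of -0.56 to 0.53 over 12 pairs (2 best). The main fits did not take the numbers as pairing. For CMP those fits leave out a relation between same-numbered libraries that these r show, so the calls against CMP should be read with the block. With the replicate number as a block, 4 genes were higher and 3 lower against CMP, and 0 were higher and 0 lower against GMP. Against CMP, Ighm, Tnfrsf13c, Blnk and Ifi209, lower in the main fit, and Gm5424, higher there by 1.30, no longer passed (edgeR adjusted p = 0.0531 to 0.104).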
